A study of Mus musculus with 12 samples.

Results

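The genes described here are 42 cell cycle genes, 25 that act in mitosis and 17 that act in S phase, the period of DNA replication. They were taken by gene symbol from a table of 55335 genes, and each symbol was found there. Level tests were run on the 13794 genes with a mean of at least 1 FPKM over all libraries, where FPKM are fragments scaled to transcript length and library size. This kept all 25 mitotic members and 16 of 17 S phase members. Cdc6 fell below the limit and is described by its values alone. The table came from colon RNA of wild-type (WT) mice with colitis, sequenced as 12 libraries in 4 groups of 3. The first group had colitis from dextran sulfate sodium (DSS), a polymer that injures the colon epithelium, and received thymopentin (TP5), a synthetic peptide modelled on the thymic protein thymopoietin. The second had DSS colitis and received normal saline. The third and the fourth had colitis from trinitrobenzene sulfonic acid (TNBS), a hapten that raises a T cell response, with thymopentin in the third and normal saline in the fourth. Every group had colitis, no colon without colitis was analysed here, and the labels do not state dose, schedule, strain, sex or age.

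Dividing cells copy their DNA in S phase and part the copies in mitosis, and the genes for each step are transcribed in turn. S phase genes such as those of the MCM helicase are switched on late in G1 phase by E2F transcription factors. Mitotic genes follow in G2 phase, driven by B-MYB (Mybl2) and FOXM1 with the MuvB complex, which binds a promoter element called CHR, often near CCAAT boxes bound by the factor NF-Y. In the colon the dividing cells lie mainly in the lower crypt, as stem cells and their transit-amplifying daughters, and activated lymphocytes divide too. In RNA of whole colon, fewer dividing cells and less of these RNAs per dividing cell cannot be told apart.

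The promoter windows of the classes held these elements in unequal shares. RefSeq windows in build GRCm38.p6, running from 250 bases before to 50 bases after a gene's start, were matched by symbol for 34 members, with 21 windows for 20 mitotic genes and 15 for 14 S phase genes. Windows for Ccna2, Ccne2, Foxm1, Gins2, Kif20a, Mcm4, Aurkb and Tpx2 were not used here. The CHR letters TTTGAA or TTCGAA stood, on either strand, in 76.2% of mitotic windows and in 20.0% of S phase windows, against 19.2% of all 32851 windows. CCAAT stood in 85.7% of mitotic windows and 66.7% of S phase windows, against 37.4% of all windows. The E2F letters TTTCCCGC, TTTCGCGC, TTTGCCGC or TTTGGCGC stood in 4.76% of mitotic windows and 40.0% of S phase windows, against 2.26% of all. A match describes letters in a window and is not a measured binding site.

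Cenpa and Ube2c are shown for the mitotic class. They had the smallest p for thymopentin against saline in DSS among members with a single window that held both CHR and CCAAT letters. Windows without these letters were thus not eligible. The Cenpa window lay at chr5:30666636-30666935 on the plus strand and the Ube2c window at chr2:164769679-164769978 on the plus strand. Capitals mark the CHR letters (TTTGAA, which reads TTCAAA where it lay on the other strand) and the CCAAT letters, which read ATTGG on the other strand, and in Ube2c a pair of CCAAT matches on opposite strands overlapped.
Cenpa: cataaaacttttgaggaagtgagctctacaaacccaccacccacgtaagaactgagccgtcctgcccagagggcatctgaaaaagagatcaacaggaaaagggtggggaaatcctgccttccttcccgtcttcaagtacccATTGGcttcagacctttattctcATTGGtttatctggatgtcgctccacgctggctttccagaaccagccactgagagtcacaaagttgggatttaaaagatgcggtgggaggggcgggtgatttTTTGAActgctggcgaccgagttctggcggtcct
Ube2c: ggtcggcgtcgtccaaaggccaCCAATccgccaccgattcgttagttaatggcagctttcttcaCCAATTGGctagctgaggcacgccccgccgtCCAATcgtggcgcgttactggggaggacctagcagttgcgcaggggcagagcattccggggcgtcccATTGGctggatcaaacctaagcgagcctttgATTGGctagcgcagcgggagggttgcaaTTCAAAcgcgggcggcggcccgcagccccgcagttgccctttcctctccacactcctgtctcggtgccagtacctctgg
Mcm6 and Mcm3 are shown for the S phase class, as the members of highest mean FPKM among those with a single window that held E2F letters. Windows without E2F letters were thus not eligible. Both are genes of the MCM helicase and were not called between thymopentin and saline in either model. The Mcm6 window lay at chr1:128359656-128359955 and the Mcm3 window at chr1:20820263-20820562, both on the minus strand and printed in the direction of transcription. Capitals mark the E2F letters on either strand, and in Mcm6 a pair of matches on opposite strands overlapped.
Mcm6: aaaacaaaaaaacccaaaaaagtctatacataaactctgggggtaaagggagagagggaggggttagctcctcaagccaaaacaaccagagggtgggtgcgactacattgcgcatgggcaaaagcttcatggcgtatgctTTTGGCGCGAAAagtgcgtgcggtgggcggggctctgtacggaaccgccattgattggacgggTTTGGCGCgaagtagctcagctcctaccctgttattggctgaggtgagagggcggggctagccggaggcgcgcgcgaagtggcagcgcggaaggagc
Mcm3: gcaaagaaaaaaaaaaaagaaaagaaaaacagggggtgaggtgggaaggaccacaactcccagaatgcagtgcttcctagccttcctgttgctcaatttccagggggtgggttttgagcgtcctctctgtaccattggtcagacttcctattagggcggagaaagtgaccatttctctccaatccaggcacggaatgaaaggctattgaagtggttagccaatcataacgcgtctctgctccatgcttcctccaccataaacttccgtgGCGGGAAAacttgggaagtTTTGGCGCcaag

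The FPKM of a library summed to 384431 to 532510, and 13160 to 13805 genes reached 1 FPKM. Correlations across genes within a group lay between 0.932 and 0.977. Read totals are not stated in the labels or the tables, so the depth behind an FPKM is unknown for genes outside the authors' lists of changed genes. The labels do not say whether the libraries of a group came from separate mice, so the p-values measure the spread between these libraries.

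Over the 12 libraries Plk1 and Pcna had the highest mean levels, 24.9 and 24.8 FPKM, followed by Mki67 with 15.2 and Ccnb2 with 13.3 FPKM. Plk1 encodes a kinase that drives mitotic entry and spindle assembly, and Pcna the clamp that holds polymerases on DNA. The lowest means were 0.611 FPKM for Cdc6, 1.14 for E2f1, 1.29 for Mybl2 and 1.33 for Foxm1, all regulators. Plk1 and Pcna did not differ in level beyond their spread over libraries. DSS saline had the lowest group mean for 24 of 25 mitotic members and 15 of 17 S phase members. The highest group mean was in TNBS saline for 16 mitotic members and in TNBS thymopentin for 12 S phase members.

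**Figure D1:**
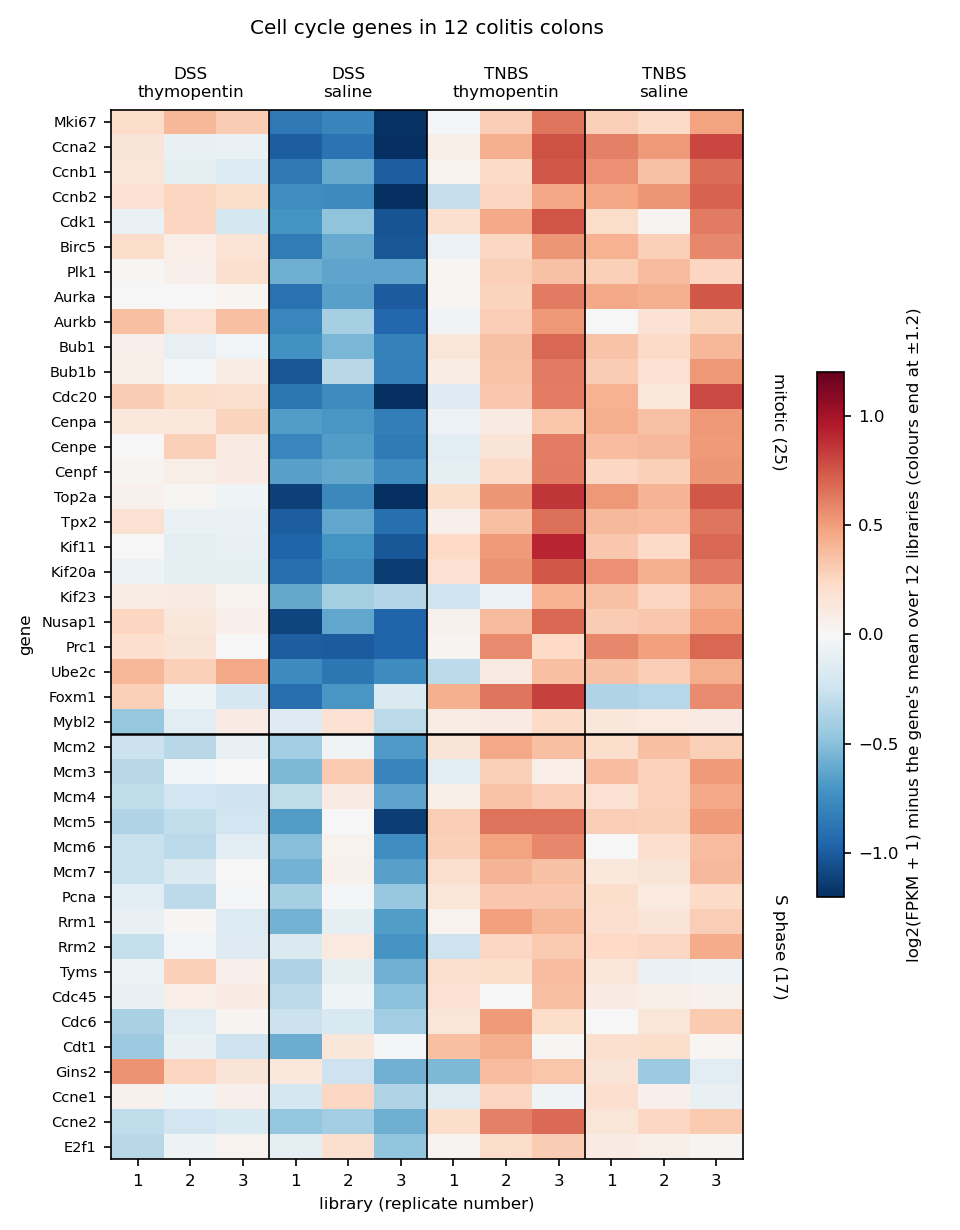
Levels of all 42 genes (rows) in the 12 libraries (columns), as log2(FPKM + 1) minus the gene's mean over the libraries; red is above that mean and blue below it, and the colours end at ±1.2. By group mean DSS saline lies below the gene's mean for all 25 mitotic and all 17 S phase genes, and its library 3 is the lowest of all 12 for 16 mitotic and 16 S phase genes.

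In DSS colitis, thymopentin colons held more RNA of nearly the whole mitotic class than saline colons, while a single S phase gene was called. limma, fitted to log2(FPKM + 1) of all 13794 genes, called 23 of 25 mitotic members higher at an adjusted p under 0.05, and 1 of 16 S phase members, Tyms. No member was called lower, and none fell at an unadjusted p under 0.05. Of all genes tested 17.0% were called, 12.7% higher. The median log2 fold change was 0.86 over the mitotic members and 0.19 over the S phase members, against 0.12 over all tested genes. The S phase median was 0.35 without DSS saline library 2 and 0.02 without DSS saline library 3. Fold changes on this scale understate those of genes near 1 FPKM. The 3 thymopentin libraries lay above the 3 saline libraries, with no overlap, for 23 mitotic and 3 S phase members, where 28.3% of all genes did so. Rescaling the libraries by median ratios moved the median of all genes in DSS to -0.01 and the share of called genes that were higher to 44.0%, against 74.7% with FPKM as deposited, and left 21 members called, all higher. Scaled to 8 epithelial markers, 264 of 881 called genes were higher and 15 members kept their call, all higher. These were the same 15 that held in every alternative in which they were tested. A mean of at least 5 FPKM left some of them untested.

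**Figure D2:**
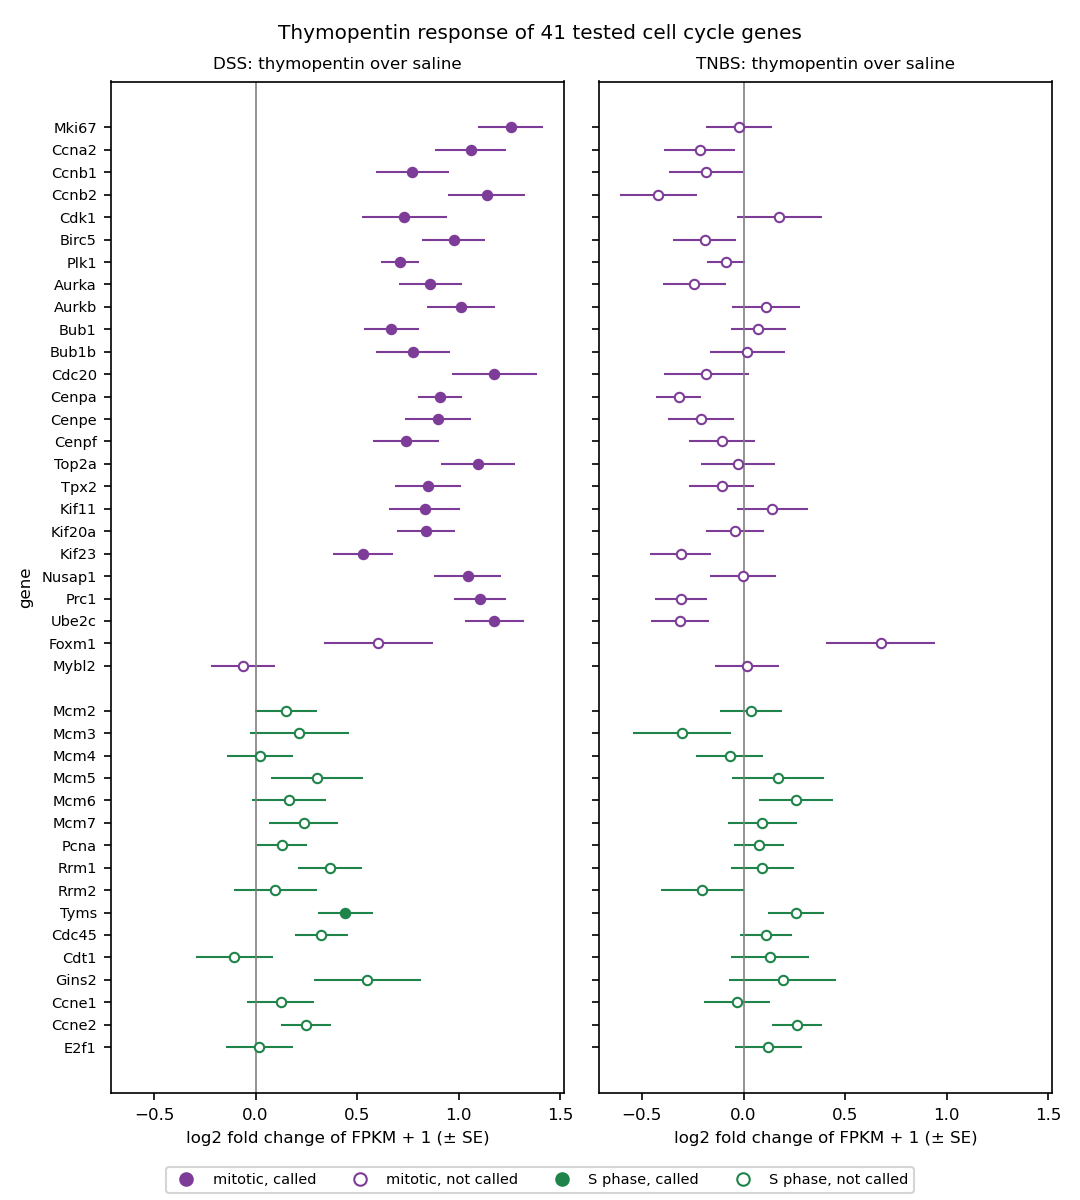
Log2 fold change of FPKM + 1, thymopentin over saline, with its standard error, for the 41 tested genes in DSS (left) and TNBS (right); filled symbols were called at an adjusted p under 0.05, purple is mitotic and green S phase. In DSS 23 mitotic genes and Tyms are filled and lie right of 0, and in TNBS no gene is filled.

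Both genes of chromosome structure were among the larger responses. Mki67, whose protein coats mitotic chromosomes and serves as the common marker of dividing cells, had 16.7, 18.9 and 17.7 FPKM in DSS thymopentin libraries, against 7.33, 7.71 and 5.64 in DSS saline libraries. Every thymopentin value lay above 7.71 FPKM, the highest saline value, and the log2 fold change was 1.26 ± 0.16 (SE, adjusted p = 0.00167, limma), the largest of the mitotic class. Top2a, the topoisomerase that untangles sister chromatids, had 7.77, 7.54 and 7.14 FPKM with thymopentin, against 2.9, 3.95 and 2.24 with saline. These groups did not overlap either, and the log2 fold change was 1.10 ± 0.18 (adjusted p = 0.00487, limma).

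All 6 kinases and cyclins of mitotic entry were called higher, with a median log2 fold change of 0.82. Plk1 gave the most even values, 24.4, 25.2 and 27.7 FPKM in DSS thymopentin libraries, against 15.7, 15.2 and 15.2 in DSS saline libraries. The saline libraries were nearly equal and all thymopentin libraries lay well above them, a log2 fold change of 0.71 ± 0.09 (adjusted p = 0.00189, limma). Ccnb2, a B-type cyclin that partners Cdk1, had 14, 14.9 and 14.4 FPKM with thymopentin, against 6.94, 6.83 and 4.53 with saline. All its thymopentin libraries lay far above the highest saline library, with a log2 fold change of 1.14 ± 0.19 (adjusted p = 0.00484, limma). Ccna2, the cyclin that serves both S phase and mitotic entry, had 11.3, 9.4 and 9.45 FPKM with thymopentin, against 4.56, 4.96 and 3.45 with saline. Again the groups did not overlap (log2 fold change 1.06 ± 0.17, adjusted p = 0.00469, limma). Cdk1, the kinase that triggers mitosis, had 3.43, 4.58 and 3.02 FPKM with thymopentin, against 1.83, 2.35 and 1.28 with saline. Ccnb1, the main B-type cyclin, had 3.63, 2.87 and 2.74 FPKM with thymopentin, against 1.31, 1.76 and 1.11 with saline. Both were called, Cdk1 at a log2 fold change of 0.73 ± 0.21 (adjusted p = 0.0376, limma) and Ccnb1 at 0.77 ± 0.18 (adjusted p = 0.0192, limma), but Cdk1 lost its call in 11 of 18 alternatives and Ccnb1 in 5 of 18. Aurka, the centrosomal Aurora kinase, averaged 3.7 ± 0.0414 FPKM in thymopentin libraries and 1.61 ± 0.326 FPKM in saline libraries (SD, n = 3 each) and was called as well. The table also lists Ccnb1-ps and Ccnb2-ps, pseudogenes that stayed below 1 FPKM in each library, and the labels do not say how reads shared with them were counted.

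The 4 genes of the spindle checkpoint and anaphase exit were called higher, with a median log2 fold change of 0.98. Ube2c, the ubiquitin-conjugating enzyme that works with the anaphase-promoting complex, had 13.1, 12.1 and 13.7 FPKM in DSS thymopentin libraries, against 5.31, 4.84 and 5.34 in DSS saline libraries. The groups lay far apart relative to their spread (log2 fold change 1.18 ± 0.14, adjusted p = 0.00136, limma). Bub1, a checkpoint kinase at the kinetochore, had 2.09, 1.78 and 1.9 FPKM with thymopentin, against 0.801, 1.03 and 0.695 with saline, again with no overlap (log2 fold change 0.67 ± 0.14, adjusted p = 0.0109, limma). Bub1b, which encodes the checkpoint protein BubR1, and Cdc20, the activator of the anaphase-promoting complex, were the other two called. Cdc20 averaged 10.8 ± 0.477 FPKM with thymopentin and 4.28 ± 0.798 FPKM with saline.

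Among the centromere genes, Cenpa, the histone H3 variant that marks the centromere, had 4.11, 4.12 and 4.64 FPKM in DSS thymopentin libraries, against 1.94, 1.88 and 1.64 in DSS saline libraries. Its groups did not overlap (log2 fold change 0.91 ± 0.11, adjusted p = 0.0013, limma). Cenpe, a kinetochore motor, and Cenpf, a large kinetochore protein, were called too, and the median of the 3 was 0.90. Both chromosomal passenger genes, Aurkb (Aurora B kinase) and Birc5 (survivin), were called, with a median of 0.99.

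All 6 spindle and cytokinesis genes were called higher, with a median of 0.84. Prc1, which bundles the microtubules of the spindle midzone, had 2.92, 2.8 and 2.41 FPKM in DSS thymopentin libraries, against 0.72, 0.701 and 0.747 in DSS saline libraries. The saline values were nearly equal and the ratio of group means was 3.75, the highest of the 42 genes (log2 fold change 1.10 ± 0.13, adjusted p = 0.00117, limma). Kif11, the motor that pushes spindle poles apart, had 3.01, 2.7 and 2.78 FPKM with thymopentin, against 1.06, 1.44 and 0.976 with saline. Kif20a, a motor of the central spindle, had 2.59, 2.47 and 2.48 FPKM with thymopentin, against 0.997, 1.22 and 0.702 with saline. In both genes the lowest thymopentin library exceeded the highest saline library, with log2 fold changes of 0.83 ± 0.17 for Kif11 (adjusted p = 0.0124, limma) and 0.84 ± 0.14 for Kif20a (adjusted p = 0.0056, limma). Tpx2, Nusap1 and Kif23, spindle assembly and central spindle genes, completed the group, and Kif23 had the smallest called mitotic response, 0.53 ± 0.15 (adjusted p = 0.0374, limma). The Kif23 call was lost in 10 of 18 alternatives.

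The mitotic members without a call were the 2 transcription factors. Foxm1 had 1.66, 1.11 and 0.898 FPKM in DSS thymopentin libraries, against 0.164, 0.346 and 0.93 in DSS saline libraries. The highest saline library overlapped the thymopentin libraries, and the log2 fold change was 0.60 ± 0.27 (adjusted p = 0.143, limma). Mybl2 had 0.652, 1.07 and 1.43 FPKM with thymopentin, against 1.03, 1.58 and 0.808 with saline, with overlapping ranges (log2 fold change -0.06 ± 0.16, adjusted p = 0.816, limma). Both genes lay near 1 FPKM. The coefficient of variation of Foxm1 in DSS saline was 83.3%, the highest of the class, whose median was 20.6%.

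**Figure D3:**
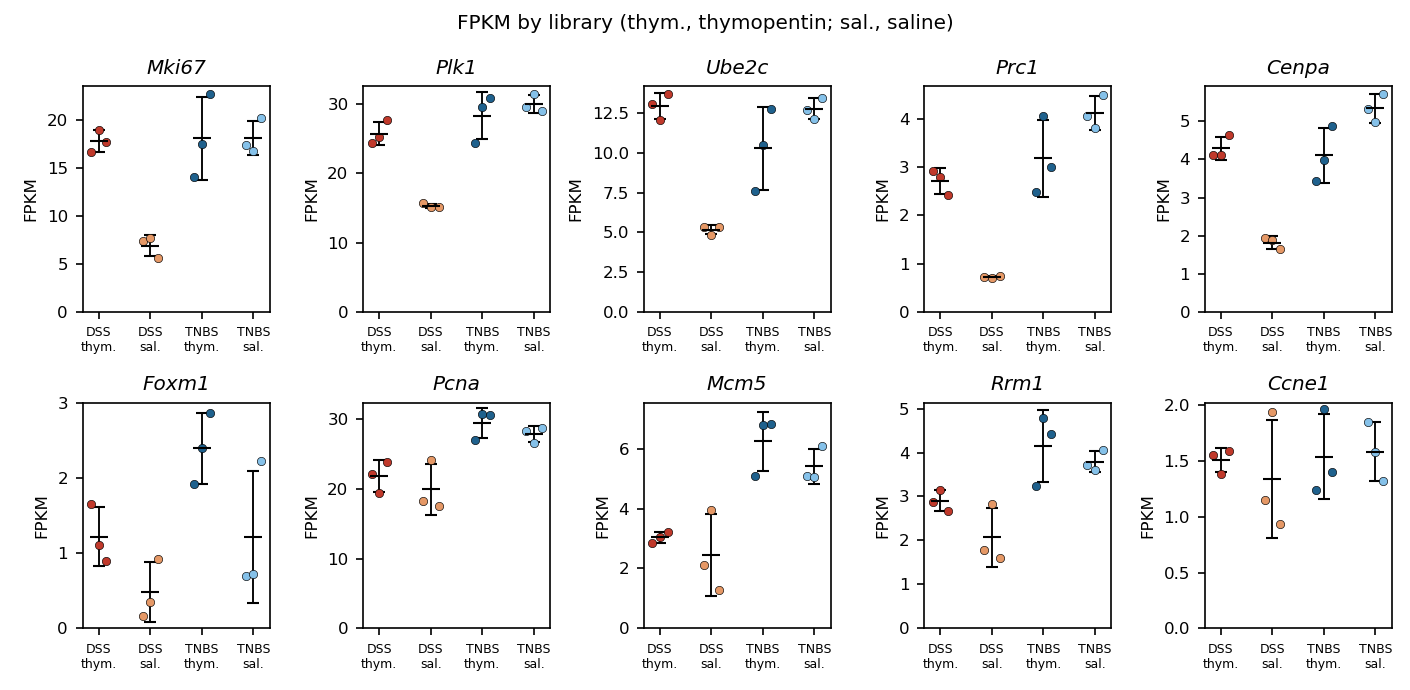
FPKM by library (points) with the group mean and SD (bars, n = 3) for 6 mitotic genes and 4 S phase genes, in the groups DSS thymopentin, DSS saline, TNBS thymopentin and TNBS saline. For Mki67, Plk1, Ube2c, Prc1 and Cenpa the DSS saline points lie below all points of the other 3 groups, while Foxm1, Pcna, Mcm5, Rrm1 and Ccne1 overlap between the DSS groups.

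Of the S phase members in DSS, Tyms passed the test at its limit. Tyms, the enzyme that makes thymidylate for DNA, had 2.76, 3.8 and 3.1 FPKM in DSS thymopentin libraries, against 2.05, 2.66 and 1.64 in DSS saline libraries. The groups lay side by side without overlap (log2 fold change 0.44 ± 0.14, adjusted p = 0.0491, limma), and the call was lost in 14 of 18 alternatives. Rrm1, the large subunit of ribonucleotide reductase, had 2.88, 3.16 and 2.68 FPKM with thymopentin, against 1.79, 2.83 and 1.6 with saline. Here saline library 2 lay among the thymopentin values, and the log2 fold change was 0.37 ± 0.16 (adjusted p = 0.126, limma). Pcna had 22.1, 19.3 and 23.9 FPKM with thymopentin, against 18.2, 24.2 and 17.5 with saline, and its groups overlapped (log2 fold change 0.13 ± 0.12, adjusted p = 0.496, limma). A pseudogene, Pcna-ps2, was listed at 4.32 to 8.68 FPKM, and reads shared between it and Pcna could be counted to either, so the level of Pcna is uncertain.

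None of the 6 MCM genes, which form the helicase that opens origins and unwinds DNA, was called in DSS, and their median log2 fold change was 0.19. Mcm5 had 2.87, 3.04 and 3.23 FPKM in DSS thymopentin libraries, against 2.13, 3.94 and 1.28 in DSS saline libraries. Mcm2 had 1.77, 1.63 and 2.12 FPKM with thymopentin, against 1.49, 2.23 and 1.08 with saline. Mcm3 had 3.09, 4.06 and 4.14 FPKM with thymopentin, against 2.56, 5.42 and 1.97 with saline. In all of these the saline libraries spread on both sides of the thymopentin libraries, with saline library 2 highest and saline library 3 lowest. Mcm6 showed the same spread, with 5.01, 4.78 and 5.56 FPKM with thymopentin, against 4.05, 6.42 and 3.31 with saline. The log2 fold changes of these 4 genes lay between 0.15 and 0.30, with adjusted p-values from 0.382 to 0.567 (limma). Leaving out DSS saline library 2 brought calls for Mcm3, Mcm5, Mcm7, Rrm1 and Cdc45, and gave 28 called members in place of 24.

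Of the genes that license origins or join the helicase to make it active, Gins2, a part of the active helicase, had 7.11, 5.69 and 5.24 FPKM in DSS thymopentin libraries, against 5.09, 3.72 and 2.75 in DSS saline libraries. Cdc45, another part of it, had 1.3, 1.59 and 1.62 FPKM with thymopentin, against 0.952, 1.35 and 0.737 with saline. Gins2 did not overlap between the groups but varied widely within them, and neither gene was called (adjusted p = 0.167 for Gins2 and 0.108 for Cdc45, limma). Cdt1, which loads the MCM ring, had 0.736, 1.21 and 0.978 FPKM with thymopentin, against 0.558, 1.59 and 1.33 with saline, with saline values on both sides (log2 fold change -0.10 ± 0.19, adjusted p = 0.739, limma). Cdc6, its partner in loading, had 0.212, 0.437 and 0.624 FPKM with thymopentin, against 0.324, 0.395 and 0.187 with saline, and was not tested.

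The genes of the G1 to S transition showed no call in DSS. Ccne1, the first cyclin E, had 1.56, 1.38 and 1.59 FPKM in DSS thymopentin libraries, against 1.15, 1.94 and 0.933 in DSS saline libraries. Ccne2, the second cyclin E, had 1.25, 1.37 and 1.45 FPKM with thymopentin, against 1.02, 1.08 and 0.854 with saline. E2f1, an activating E2F factor, had 0.676, 1.02 and 1.18 FPKM with thymopentin, against 0.944, 1.41 and 0.518 with saline. Ccne2 alone of these did not overlap between the groups, at a log2 fold change of 0.25 ± 0.12 (adjusted p = 0.183, limma), while Ccne1 and E2f1 gave 0.12 ± 0.16 and 0.02 ± 0.17 (adjusted p = 0.634 and 0.949, limma).

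In TNBS colitis no member was called between thymopentin and saline, and 4 members, all mitotic, had an unadjusted p under 0.05 in limma. Of all tested genes 0.667% were called, 0.283% higher and 0.384% lower. Libraries of the groups did not overlap for Tyms, higher under thymopentin as 12.1% of all genes were, and for Cenpa, lower as 6.75% of all genes were. The median log2 fold change was -0.11 over the mitotic members and 0.10 over the S phase members, against 0.03 over all tested genes, and the mitotic median turned to 0.12 when scaled to the epithelial markers, where the median of all genes was 0.25 and 75.0% of called genes were higher, against 42.4% as deposited. The mitotic median also turned, to 0.04, without TNBS thymopentin library 1, and was -0.26 without TNBS thymopentin library 3 and -0.02 without TNBS saline library 3. The S phase median was 0.05 without TNBS thymopentin library 2 or 3 and 0.07 without TNBS saline library 2. The 4 genes were Ccnb2, Cenpa and Prc1, with lower values under thymopentin, and Foxm1, with higher values. Cenpa had 3.45, 4.0 and 4.89 FPKM in TNBS thymopentin libraries, against 5.33, 4.98 and 5.73 in TNBS saline libraries, with no overlap and a log2 fold change of -0.32 ± 0.11 (adjusted p = 0.245, limma). Foxm1 had 1.93, 2.41 and 2.87 FPKM with thymopentin, against 0.697, 0.725 and 2.23 with saline. The third saline library lay among the thymopentin libraries, and the log2 fold change was 0.68 ± 0.27 (adjusted p = 0.325, limma).

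The marker Mki67 had 14, 17.5 and 22.6 FPKM in TNBS thymopentin libraries, against 17.4, 16.7 and 20.1 in TNBS saline libraries. The thymopentin libraries lay on both sides of the saline libraries, and the group means were nearly equal (log2 fold change -0.02 ± 0.16, adjusted p = 0.978, limma). Ube2c had 7.59, 10.5 and 12.7 FPKM with thymopentin, against 12.7, 12.2 and 13.5 with saline. Prc1 had 2.48, 4.06 and 3.01 FPKM with thymopentin, against 4.07, 3.81 and 4.49 with saline. Ccnb2 had 9.96, 14.9 and 17.3 FPKM with thymopentin, against 17.3, 18.2 and 20.8 with saline. In these 3 genes the lowest value was in TNBS thymopentin library 1, and the groups overlapped. Top2a had 8.79, 11.2 and 14.4 FPKM with thymopentin, against 11.1, 10.2 and 13.2 with saline, and Plk1 had 24.5, 29.7 and 31 FPKM with thymopentin, against 29.5, 31.5 and 29 with saline. Neither separated the groups. TNBS thymopentin libraries varied more in this class than TNBS saline libraries, with median coefficients of variation of 25.2% and 11.0%, and TNBS thymopentin library 3 was the highest of all 12 for 15 mitotic members.

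Of the S phase members in TNBS, Tyms and Ccne2 had the smallest p-values. Tyms had 3.48, 3.55 and 4.08 FPKM in TNBS thymopentin libraries, against 3.34, 2.71 and 2.76 in TNBS saline libraries. The groups did not overlap, but the log2 fold change of 0.26 ± 0.14 did not pass (adjusted p = 0.481, limma). Ccne2 had 2.22, 3.23 and 3.46 FPKM with thymopentin, against 2.08, 2.31 and 2.46 with saline, where library 1 of the thymopentin group fell within the saline range (log2 fold change 0.26 ± 0.12, adjusted p = 0.421, limma). Among the MCM genes Mcm3 had 3.72, 5.29 and 4.46 FPKM with thymopentin, against 5.67, 5.23 and 6.35 with saline, and Mcm6 had 7.8, 9.1 and 9.78 FPKM with thymopentin, against 6.2, 7.32 and 8.34 with saline. These gave the extremes of the helicase genes, -0.30 ± 0.24 for Mcm3 and 0.26 ± 0.18 for Mcm6 on the log2 scale, and both pairs of groups overlapped.

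The thymopentin responses of the models were then set against each other as an interaction in the same limma fit. The response was called larger in DSS for 16 of 25 mitotic members and for none of the 16 S phase members, none of which had an unadjusted p under 0.05. Of all tested genes 5.15% were called, 2.73% with the larger value in DSS. The median difference, DSS minus TNBS, was 0.96 on the log2 scale over the mitotic members and 0.14 over the S phase members, against 0.11 over all tested genes. Scaled to the epithelial markers, the S phase median turned to -0.23 and the mitotic median was 0.60, while the median of all genes moved to -0.27. Without DSS saline library 3 the S phase median turned to -0.0090, without DSS saline library 2 it was 0.32, and it was 0.09 without DSS thymopentin library 3 or TNBS saline library 3 and 0.05 without TNBS thymopentin library 1. Of the called genes 53.0% had the larger value in DSS as deposited, 33.8% after median-ratio rescaling and 5.74% after epithelial scaling. Cenpa, Prc1 and Ube2c had the smallest p-values of the members. The difference was 1.23 ± 0.15 for Cenpa (adjusted p = 0.00603, limma), 1.41 ± 0.18 for Prc1 (adjusted p = 0.00614, limma) and 1.49 ± 0.20 for Ube2c (adjusted p = 0.00716, limma). Their responses by model were 0.91, 1.10 and 1.18 in DSS, against -0.32, -0.31 and -0.31 in TNBS. Plk1 had the next smallest p, with a difference of 0.80 ± 0.13 (adjusted p = 0.0138, limma), and Ccnb2 the largest difference, 1.56 ± 0.27 (adjusted p = 0.015, limma). Of the S phase genes Mcm3 came highest, at 0.52 ± 0.34, and Cdt1 lowest, at -0.23 ± 0.27, with adjusted p-values of 0.415 and 0.664 (limma). These 3 genes, Cenpa, Prc1 and Ube2c, were the ones that kept their call in every alternative in which they were tested. Cenpa and Prc1 were not tested at a mean of at least 5 FPKM. The count of called members fell to 3 after scaling to the epithelial markers, and to 6 without TNBS saline library 1 or without DSS saline library 3. It was 10 without TNBS saline library 2, TNBS thymopentin library 1 or DSS thymopentin library 1, and 8 without DSS thymopentin library 2 or library 3.

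Averaged over its genes, the mitotic class stood at 2.53 ± 0.02 log2(FPKM + 1) in DSS thymopentin libraries, 1.66 ± 0.14 in DSS saline libraries, 2.75 ± 0.29 in TNBS thymopentin libraries and 2.83 ± 0.14 in TNBS saline libraries (SD, n = 3 each). The DSS saline group lay below the other groups with no overlap. The S phase class stood at 2.05 ± 0.06 in DSS thymopentin libraries, 1.85 ± 0.31 in DSS saline libraries, 2.42 ± 0.16 in TNBS thymopentin libraries and 2.35 ± 0.04 in TNBS saline libraries. Its DSS saline libraries, at 1.79, 2.18 and 1.57, reached above and below the DSS thymopentin libraries. The gap between the classes, mitotic minus S phase, was 0.57, 0.44 and 0.41 in DSS thymopentin libraries, against -0.16, -0.37 and -0.03 in DSS saline libraries. It was 0.22, 0.23 and 0.53 in TNBS thymopentin libraries, against 0.44, 0.42 and 0.60 in TNBS saline libraries. DSS saline was thus the group in which the S phase mean exceeded the mitotic mean, in 3 of 3 libraries. This gap is a description of the lists and was not tested.

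**Figure D4:**
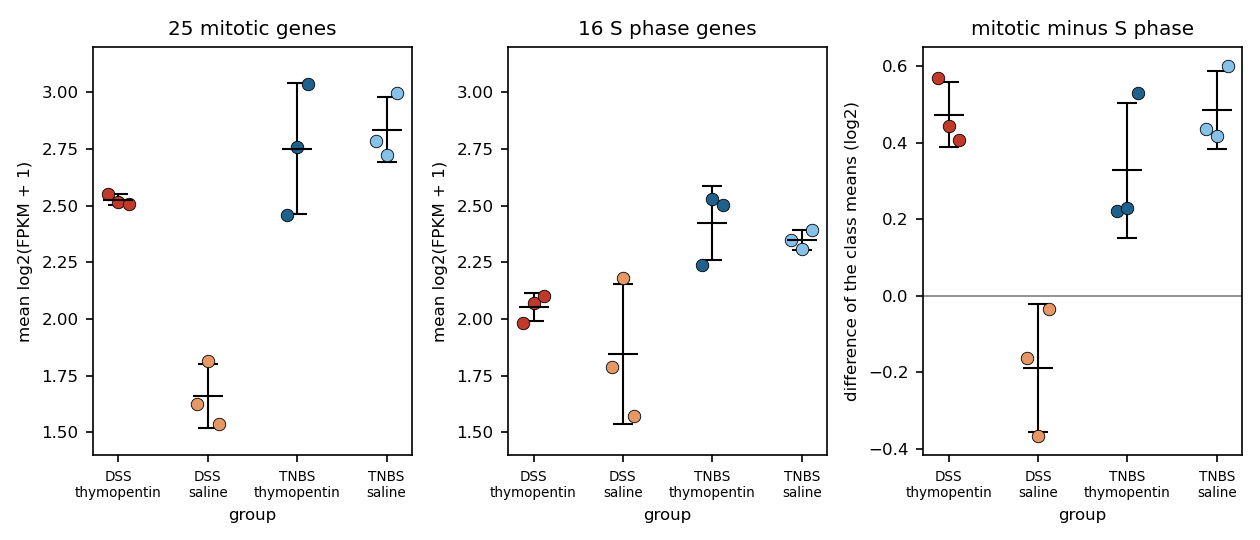
Mean log2(FPKM + 1) of the 25 mitotic genes (left) and the 16 tested S phase genes (middle), and the mitotic mean minus the S phase mean (right), per library (points) with group mean and SD (bars, n = 3). The left and middle axes run from 1.4 to 3.2 and do not start at 0. The mitotic mean of DSS saline lies below the other groups, and its gap lies below 0 in each library while all other libraries lie above 0.

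Without thymopentin, DSS colons held less of both classes than TNBS colons. limma called 23 mitotic and 11 S phase members lower in DSS saline than in TNBS saline, and none higher, none of them higher at an unadjusted p under 0.05 either. Here 46.6% of all tested genes were called, 31.5% lower, so a large share of the transcriptome parted the models. Median log2 fold changes, DSS over TNBS, were -1.25 over the mitotic members and -0.58 over the S phase members, against -0.14 over all tested genes. Of the called genes 32.5% were higher in DSS as deposited, 50.9% after median-ratio rescaling and 65.8% after epithelial scaling, and the members called were 30 and 24 under these scalings, all lower. In 33 members the 3 DSS saline libraries lay below the 3 TNBS saline libraries, where 37.7% of all genes did so. The median member of the mitotic class stood in DSS saline at 32.8% of its TNBS saline mean, and the median S phase member at 63.1%. All 23 mitotic calls and that of Ccne2 held in every alternative in which the gene was tested. Several of these genes were not tested at a mean of at least 5 FPKM. Markers of other cell types differed in the same comparison, where 15.2% of all tested genes were called higher in DSS. Macrophage markers summed to 192 to 244 FPKM in DSS saline libraries, against 42.6 to 86.5 FPKM in TNBS saline libraries, with 8 of 8 called higher. Smooth muscle, at 3426 to 3984 FPKM in DSS saline libraries, against 864 to 2670 FPKM in TNBS saline libraries, had 6 of 8 called higher. Fibroblasts had 7 of 8 and T cells 6 of 7 tested markers called higher, and crypt stem cells had 5 of 7 called lower. The part of these cells in the result was not tested.

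The smallest p among the members was that of Prc1, with 0.72, 0.701 and 0.747 FPKM in DSS saline libraries, against 4.07, 3.81 and 4.49 in TNBS saline libraries. Its DSS libraries were nearly equal and lay far below the TNBS libraries (log2 fold change -1.57 ± 0.13, adjusted p = 3.37e-05, limma). Ccna2 had the largest fold change, -1.70 ± 0.17 (adjusted p = 8.81e-05, limma), from 4.56, 4.96 and 3.45 FPKM in DSS saline libraries, against 15.7, 14.8 and 18.2 in TNBS saline libraries. Kif20a had 0.997, 1.22 and 0.702 FPKM in DSS saline libraries, against 4.47, 4.03 and 4.76 in TNBS saline libraries, and the groups lay far apart (log2 fold change -1.46 ± 0.14, adjusted p = 7.79e-05, limma). Cenpa and Plk1 were among the 5 smallest p-values too, with log2 fold changes of -1.17 ± 0.11 (adjusted p = 5.88e-05, limma) and -0.92 ± 0.09 (adjusted p = 8.95e-05, limma). Cdk1 had 1.83, 2.35 and 1.28 FPKM in DSS saline libraries, against 4.46, 3.76 and 6.17 in TNBS saline libraries. Ccnb1 had 1.31, 1.76 and 1.11 FPKM in DSS saline libraries, against 5.14, 4.35 and 5.66 in TNBS saline libraries. Both were lower in DSS without overlap, with log2 fold changes of -1.04 ± 0.21 for Cdk1 and -1.34 ± 0.18 for Ccnb1 (adjusted p = 0.00245 and 0.000307, limma). Foxm1 and Mybl2 were again the mitotic members without a call. Foxm1 gave -0.55 ± 0.27 (adjusted p = 0.119, limma) and Mybl2 -0.22 ± 0.16 (adjusted p = 0.279, limma), from 1.03, 1.58 and 0.808 FPKM in DSS saline libraries, against 1.5, 1.46 and 1.43 in TNBS saline libraries.

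Of the S phase class, all 6 MCM genes were called lower in DSS saline, with a median of -0.64. Scaled to the epithelial markers, none of the 6 kept its call, and over all alternatives tried for each gene Mcm3 lost its call in 8 of 18, Mcm6 in 6 of 19 and Mcm7 in 5 of 19. Mcm5 had 2.13, 3.94 and 1.28 FPKM in DSS saline libraries, against 5.11, 5.07 and 6.09 in TNBS saline libraries (log2 fold change -0.97 ± 0.23, adjusted p = 0.00594, limma). The highest DSS library lay below the lowest TNBS library, though the DSS values spread widely. Mcm2 had 1.49, 2.23 and 1.08 FPKM in DSS saline libraries, against 2.86, 3.26 and 3.05 in TNBS saline libraries, also without overlap (adjusted p = 0.00513, limma). Ccne2 had 1.02, 1.08 and 0.854 FPKM in DSS saline libraries, against 2.08, 2.31 and 2.46 in TNBS saline libraries, the smallest p of the class (log2 fold change -0.73 ± 0.12, adjusted p = 0.00101, limma). Rrm1 had 1.79, 2.83 and 1.6 FPKM in DSS saline libraries, against 3.72, 3.6 and 4.05 in TNBS saline libraries, and Pcna had 18.2, 24.2 and 17.5 FPKM in DSS saline libraries, against 28.4, 26.6 and 28.7 in TNBS saline libraries. Rrm1 and Pcna were both called and both without overlap (adjusted p = 0.00577 and 0.00992, limma). Tyms, Cdt1, Gins2, Ccne1 and E2f1 were not called. E2f1 had 0.944, 1.41 and 0.518 FPKM in DSS saline libraries, against 1.26, 1.21 and 1.16 in TNBS saline libraries, and Ccne1 had 1.15, 1.94 and 0.933 FPKM in DSS saline libraries, against 1.85, 1.58 and 1.32 in TNBS saline libraries. In both the DSS libraries reached above and below the TNBS libraries.

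Among thymopentin colons the models lay closer for the mitotic class and stayed apart for several S phase genes. limma called 9 members lower in DSS thymopentin than in TNBS thymopentin, Bub1, Kif11 and Kif20a of the mitotic class and Mcm2, Mcm4, Mcm5, Mcm6, Pcna and Ccne2 of the S phase class. None was called higher, and Ube2c alone was higher at an unadjusted p under 0.05. Of all tested genes 27.5% were called, 16.5% lower. Medians were -0.22 over the mitotic members and -0.40 over the S phase members, against -0.04 over all tested genes. The mitotic median was -0.36 without TNBS thymopentin library 1 and -0.13 without TNBS thymopentin library 3. Of the called genes 40.1% were higher in DSS as deposited, 50.9% after median-ratio rescaling and 18.7% after epithelial scaling, with 7 and 11 members called, all lower. In 14 members the DSS thymopentin libraries lay below the TNBS thymopentin libraries, where 27.6% of all genes did so. The median mitotic member stood at 79.3% of its TNBS thymopentin mean and the median S phase member at 69.0%. The count of called members fell to 2 without TNBS thymopentin library 2 or 3 or without DSS thymopentin library 2, and to 5 without DSS thymopentin library 3. Without TNBS thymopentin library 3, 1 of the 2 was Ube2c, called higher.

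Ccne2 was the one member called lower in DSS thymopentin in every alternative that tested it, which leaves out a mean of at least 5 FPKM. It had 1.25, 1.37 and 1.45 FPKM in DSS thymopentin libraries, against 2.22, 3.23 and 3.46 in TNBS thymopentin libraries, so that the highest DSS library stood well below the lowest TNBS library (log2 fold change -0.74 ± 0.12, adjusted p = 0.00287, limma). Kif20a had 2.59, 2.47 and 2.48 FPKM in DSS thymopentin libraries, against 3.25, 4.44 and 5.28 in TNBS thymopentin libraries (log2 fold change -0.58 ± 0.14, adjusted p = 0.0146, limma). Mcm6 had 5.01, 4.78 and 5.56 FPKM in DSS thymopentin libraries, against 7.8, 9.1 and 9.78 in TNBS thymopentin libraries (log2 fold change -0.69 ± 0.18, adjusted p = 0.0182, limma). Neither gene overlapped between the models. Mcm5 had 2.87, 3.04 and 3.23 FPKM in DSS thymopentin libraries, against 5.1, 6.81 and 6.83 in TNBS thymopentin libraries, the largest fold change of any member here at -0.83 ± 0.23 (adjusted p = 0.0222, limma). Pcna had 22.1, 19.3 and 23.9 FPKM in DSS thymopentin libraries, against 27, 30.8 and 30.7 in TNBS thymopentin libraries (log2 fold change -0.42 ± 0.12, adjusted p = 0.0291, limma). These S phase genes were low in all 3 DSS thymopentin libraries. Mki67, with the smallest difference of the mitotic class, averaged 17.7 ± 1.13 FPKM in DSS thymopentin libraries and 18.1 ± 4.34 FPKM in TNBS thymopentin libraries (adjusted p = 0.999, limma). The classes were not cleanly split. Mitotic members ranged from 50.9% (Foxm1) to 125.9% (Ube2c) of their TNBS thymopentin means, with Kif11 at 56.7%. S phase members ranged from 44.5% (Cdc6) to 119.5% (Gins2).

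**Figure D5:**
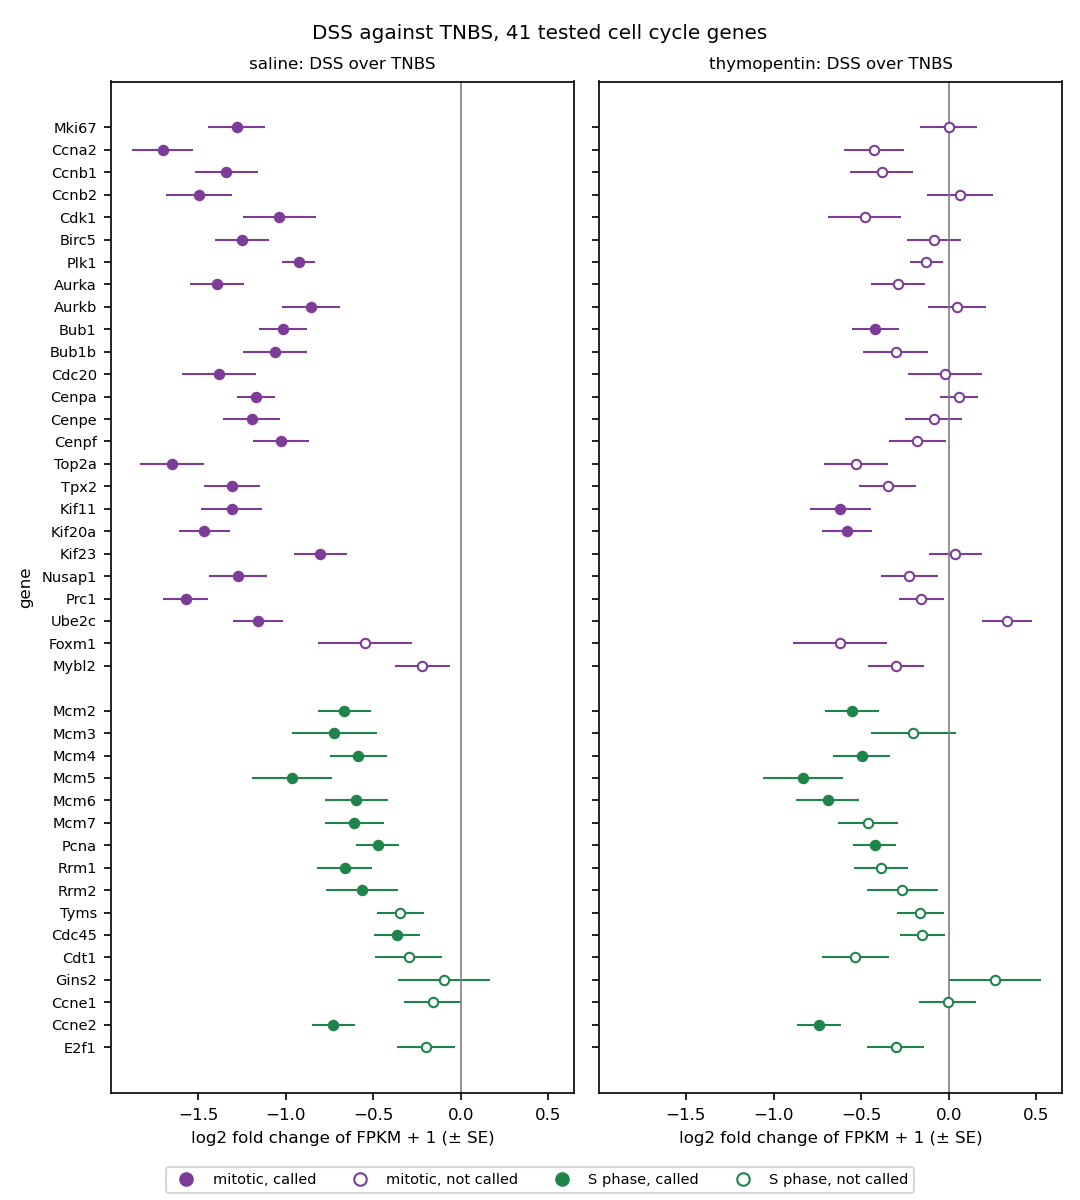
Log2 fold change of FPKM + 1, DSS over TNBS, with its standard error, for the 41 tested genes in saline colons (left) and thymopentin colons (right); filled symbols were called at an adjusted p under 0.05, purple is mitotic and green S phase. All 41 genes lie left of 0 under saline, with 34 filled, and under thymopentin 9 are filled and most mitotic genes lie nearer to 0.

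The 12 libraries can also be read gene by gene against the range of the 6 TNBS libraries. In DSS thymopentin, all 3 libraries lay below every TNBS library for 4 of 25 mitotic members and 9 of 17 S phase members, where 19.0% of all tested genes did so. In DSS saline this held for 23 mitotic members and again for 9 S phase members, where 32.5% of all tested genes did so. All 3 DSS thymopentin libraries lay inside the TNBS range for 11 mitotic members, Mki67, Ccnb2, Birc5, Aurkb, Cdc20, Cenpa, Cenpe, Cenpf, Kif23, Nusap1 and Foxm1, and for 2 S phase members, Tyms and Ccne1, where 22.9% of all tested genes did so. In DSS saline this held for 0 members of either class, where 15.9% of all tested genes did so. These counts describe libraries already used in the fits above.

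Other genes of the cell cycle were read from lists chosen by function, with earlier results of these data known, so they are not independent support. Of 43 further mitotic genes tested, 33 were called higher by thymopentin in DSS, where 12.7% of all tested genes were, and none lower, with a median log2 fold change of 0.65. Cdca3, which helps to degrade the inhibitor of mitotic entry Wee1, had 11, 10.8 and 12.3 FPKM in DSS thymopentin libraries, against 5.06, 3.99 and 4.3 in DSS saline libraries (log2 fold change 1.18 ± 0.10, adjusted p = 0.000277, limma). Kif22, a chromosome-bound motor, Tacc3, a spindle protein, and Incenp, the scaffold of the chromosomal passenger complex, followed by p, with log2 fold changes of 0.88 ± 0.11, 0.71 ± 0.09 and 0.60 ± 0.08 (adjusted p = 0.0013, 0.00186 and 0.00236, limma). In TNBS none of the 43 was called, and the smallest p was that of Cks1b, a small partner of cyclin-dependent kinases, at -0.51 ± 0.15 (adjusted p = 0.175, limma). The difference between the models was called for 15 of 43, in each case larger in DSS, led by Cdca3 at 1.32 ± 0.15 (adjusted p = 0.00385, limma). DSS thymopentin was called lower than TNBS thymopentin for 6 of 43 and higher for 2, where 16.5% and 11.0% of all tested genes were. DSS saline was called lower than TNBS saline for 41 of 43, where 31.5% of all tested genes were.

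Of 30 further DNA replication genes tested, 2 were called higher by thymopentin in DSS, Tk1 and Rfc4, where 12.7% of all tested genes were called higher. The list median was 0.15, against 0.12 over all tested genes. Tk1, the thymidine kinase of dividing cells, had 3.83, 3.69 and 3.97 FPKM in DSS thymopentin libraries, against 2.58, 2.96 and 2.06 in DSS saline libraries, without overlap (log2 fold change 0.46 ± 0.12, adjusted p = 0.0284, limma). Rfc4, a subunit of the clamp loader, had 5.56, 4.41 and 5.0 FPKM with thymopentin, against 3.37, 3.71 and 3.28 with saline (adjusted p = 0.0448, limma). None of the 30 was called in TNBS or in the difference. DSS was called lower than TNBS for 13 of the 30 under saline, where 31.5% of all tested genes were, and for 6 under thymopentin, where 16.5% were. Orc1, a subunit of the origin recognition complex, led both, with 1.24, 0.781 and 1.25 FPKM in DSS thymopentin libraries, against 2.31, 2.49 and 3.29 in TNBS thymopentin libraries (log2 fold change -0.82 ± 0.14, adjusted p = 0.00341, limma).

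Of the 13 tested G1 cyclins, kinases and E2F factors, 2 were called higher and 1 lower under thymopentin in DSS, and 1 higher in TNBS. Of all tested genes, 12.7% were called higher and 4.30% lower under thymopentin in DSS, and 0.283% higher in TNBS. In the difference between the models 2.42% were called with the lower value in DSS. In DSS, E2f3 and E2f8 were called higher under thymopentin and Cdk2 lower. E2f3, an activating E2F factor, had 4.11, 5.38 and 4.63 FPKM in DSS thymopentin libraries, against 2.74, 2.45 and 2.1 in DSS saline libraries (log2 fold change 0.73 ± 0.12, adjusted p = 0.00533, limma). Cdk2, the kinase of cyclins E and A, had 1.61, 2.36 and 1.84 FPKM with thymopentin, against 3.05, 2.88 and 3.1 with saline (log2 fold change -0.46 ± 0.13, adjusted p = 0.0342, limma). In TNBS, Ccnd2, a D-type cyclin of G1 phase, was the one called, with 23.7, 28 and 24.5 FPKM in TNBS thymopentin libraries, against 12, 14.3 and 12 in TNBS saline libraries. It was higher in every TNBS thymopentin library (log2 fold change 0.94 ± 0.12, adjusted p = 0.00709, limma), and its difference between the models was -1.05 ± 0.17 (adjusted p = 0.0112, limma), opposite in sign to that of the mitotic genes. DSS was called lower than TNBS for 6 of the 13 and higher for 1 under saline, where 31.5% and 15.2% of all tested genes were. Under thymopentin DSS was called lower for 6 of the 13, where 16.5% of all tested genes were. Of 15 tested cell cycle inhibitors and quiescence genes, Cdkn1b, which encodes the inhibitor p27, and Tob1, an antiproliferative gene, were called higher in DSS under thymopentin. This share was near that of all tested genes. Cdkn1b had 13.2, 17 and 13.1 FPKM in DSS thymopentin libraries, against 8.66, 10.2 and 8.27 in DSS saline libraries (log2 fold change 0.62 ± 0.14, adjusted p = 0.016, limma). In TNBS Gas1, a growth arrest gene, was called higher, with 6.66, 7.33 and 5.43 FPKM in TNBS thymopentin libraries, against 2.03, 2.24 and 2.65 in TNBS saline libraries (log2 fold change 1.17 ± 0.20, adjusted p = 0.0317, limma). Between the models, 9 of these 15 genes were called lower in DSS and 1 higher under saline, and 1 was called lower under thymopentin.

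Markers of several cell types differed between the same groups. Of all tested genes, 12.7% were called higher and 4.30% lower under thymopentin in DSS, and 0.283% higher in TNBS. Summed over 8 genes, crypt stem cell markers stood at 21.7 to 27.8 FPKM in DSS thymopentin libraries, against 15.3 to 16.4 FPKM in DSS saline libraries, and at 35.2 to 44.9 FPKM in TNBS thymopentin libraries, against 33.2 to 37.1 FPKM in TNBS saline libraries. Of the 7 tested, 3 were called higher under thymopentin in DSS. Summed epithelial markers overlapped, at 5166 to 5980 FPKM in DSS thymopentin libraries, against 4579 to 5748 FPKM in DSS saline libraries, and 2 of 8 were called higher. Smooth muscle markers stood at 1532 to 2296 FPKM in DSS thymopentin libraries, against 3426 to 3984 FPKM in DSS saline libraries, with 3 of 8 called lower. They stood at 1801 to 2558 FPKM in TNBS thymopentin libraries, against 864 to 2670 FPKM in TNBS saline libraries. Scaled to the epithelial markers, a setting chosen after seeing the data, the median log2 fold change of the mitotic members in DSS was 0.73. Fibroblast markers stood at 169 to 192 FPKM in DSS thymopentin libraries, against 199 to 239.8 FPKM in DSS saline libraries, with 2 of 8 called lower. They stood at 132 to 159 FPKM in TNBS thymopentin libraries, against 84.1 to 96.3 FPKM in TNBS saline libraries, with 3 of 8 called higher. The part of smooth muscle and fibroblast RNA in the results was not tested further.

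Immune markers moved as well in DSS, where 12.7% of all tested genes were called higher under thymopentin and 4.30% lower. Neutrophil markers summed to 0.908 to 1.38 FPKM in DSS thymopentin libraries, against 7.46 to 12.7 FPKM in DSS saline libraries, with both tested genes called lower. In TNBS they also lay lower without overlap, at 0.236 to 1.205 FPKM with thymopentin, against 2.034 to 9.345 FPKM with saline, with 0 called. Of the 8 neutrophil markers, 6 averaged under 1 FPKM and were not tested. Macrophage markers summed to 154 to 168 FPKM in DSS thymopentin libraries, against 192 to 244 FPKM in DSS saline libraries, with 1 of 8 called lower. Within DSS saline, B cell markers summed to 54.1, 115 and 18 FPKM in libraries 1, 2 and 3, and germinal centre B cell markers to 34.1, 39.7 and 25.8 FPKM. The S phase means of these libraries, 1.79, 2.18 and 1.57, ran in the same order, as did the mitotic means, 1.62, 1.81 and 1.54. In TNBS saline the B cell sums, 70.9, 128.6 and 1.9 FPKM, ran in the reverse order of the S phase means, 2.35, 2.31 and 2.39. B cell sums did not follow the S phase order in either thymopentin group. Germinal centre sums followed it in DSS thymopentin and TNBS saline but not in TNBS thymopentin. The part of B cells, which divide in germinal centres, in the spread of the S phase genes was not tested. Germinal centre B cell markers had 2 of 4 tested genes called lower under thymopentin in DSS. Of the 8 listed, 4 averaged under 1 FPKM and were not tested. The B cell list had 0 of 8 called there. The 8 T cell and the 8 plasma cell markers summed to ranges that overlapped between the DSS groups, with 0 of 7 tested T cell markers called and 2 of 7 tested plasma cell markers called higher.

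The authors' deposited table of changed genes for DSS lists 19 of the 25 mitotic members and none of the 17 S phase members, where it lists 4.20% of all 55335 genes, 1.58% higher. Of the 55335 genes, 21126 were at 0 in every library, so shares of all genes lie below those among expressed genes. In the authors' deposited table the log2 fold changes of the 19 members lie between 1.02 and 1.75, and the largest FDR is 2.67e-05. Prc1 has the largest of these fold changes in the authors' deposited table. In the authors' tables of both models, the low values of the per-library columns were whole multiples of 1 step per library, as counts divided by a size factor would be. Over both tables, all 7292 values at or under 30 reads were whole to within 0.01 of a read. Recovered in this way, the reads of the listed members lay between 117 and 7157 in each DSS library. Mki67 had 6416, 6149 and 7157 reads in DSS thymopentin libraries, against 3073, 2997 and 2184 in DSS saline libraries, so counting error was small beside the difference. The authors' deposited table for TNBS lists Foxm1 alone of the 42 genes, where it lists 2.12% of all genes, 1.22% higher. The log2 fold change of Foxm1 in the authors' deposited table is 1.12 and its FDR 0.339. Foxm1 had 464, 543 and 664 reads in TNBS thymopentin libraries, against 175, 157 and 575 in TNBS saline libraries, where the third saline library stood apart from the other two.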

How the data were processed

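Colon RNA of 12 libraries was extracted with TRIzol and made into strand-specific TruSeq libraries, per the labels' protocols. The authors deposited FPKM for all genes, and for genes they selected in each model p-values, FDRs and log2 fold changes beside undescribed per-library log2 values, per the file headers. Per the submitters' processing notes, build mm9, Cuffnorm, STAR 2.5, DESeq 1.22.1 and FastQC were used, in no stated role or order. The labels name no gene models. Members and lists were chosen with earlier results of these data known. Symbols are as deposited, and promoter windows come from RefSeq in another build, so none of the deposited values has a coordinate.

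Groups and replicate numbers came from the labels. limma 3.58.1 in R 4.3.3 fitted log2(FPKM + 1) of genes with a mean of at least 1 FPKM jointly to the means of the 4 groups (8 residual degrees of freedom, empirical Bayes with a trend). P-values are two-sided and adjusted by the Benjamini-Hochberg method over all 13794 tested genes within each of 5 comparisons (called if under 0.05). The comparisons share libraries. An exact permutation test of one gene, with 3 libraries a group, cannot go below 0.1 and was not used. No count test was run: only the authors' selected genes have recoverable reads. Named members were Mki67, Top2a, Cdk1, Ccnb1, Foxm1, Mybl2, Mcm2, Pcna, Ccne1 and E2f1, the 5 smallest p of each class and comparison among called members (3 where fewer than 3 were called), and each class's extreme fold changes; of other lists, up to 4 genes by p. The main fit paired no libraries, and replicate numbers entered only through a replicate block, tried as an alternative. Same-numbered TNBS libraries deviated together from their group means (r of 0.124, 0.268 and 0.476 across genes). However, TNBS thymopentin 1 correlated more with TNBS saline 2 (0.287), and in DSS the same-numbered values were -0.136, 0.043 and -0.140. Alternatives were a pseudocount of 0.1, no level filter, a mean of at least 5 FPKM, median-ratio rescaling, only the 2 groups compared, a replicate block, leaving out each library and, chosen after seeing the data, scaling to epithelial markers. Fits were tested on simulated data. Python 3.11.15, pandas 2.3.3, numpy 2.4.6 and matplotlib 3.10.9 were used.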

Additional observations from a re-analysis of the deposited data

Results flagged for a closer look

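The thymopentin response of 16 mitotic genes differed between the models by the interaction test in limma, at an adjusted p under 0.05 over all 13794 tested genes. All 16 had the larger value in DSS. The differences, DSS minus TNBS on the log2(FPKM + 1) scale, were 1.279 for Mki67, 1.121 for Top2a, 1.275 for Ccna2, 1.558 for Ccnb2, 0.796 for Plk1 and 1.102 for Aurka. They were 1.359 for Cdc20, 1.489 for Ube2c, 1.228 for Cenpa, 1.107 for Cenpe and 1.166 for Birc5. For the spindle and cytokinesis genes they were 1.412 for Prc1, 0.9561 for Tpx2, 0.8819 for Kif20a, 0.8397 for Kif23 and 1.046 for Nusap1. With a replicate block the differences of Tpx2, Kif20a and Kif23 lost their calls and that of Cenpf gained one.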

How the results depend on the processing

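No call turned its direction under the alternatives. Where a call was lost the cause was not tested, except that a mean of at least 5 FPKM leaves fewer members and genes to test.

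In DSS, thymopentin against saline, a mean of at least 5 FPKM gave 9 called members, 1447 called genes and a mitotic median log2 fold change of 1.10, and epithelial scaling gave 15 members and 881 genes. A pseudocount of 0.1 gave a mitotic median of 1.23. In TNBS 44 genes were called with no filter and 6 with only the 2 groups compared, and epithelial scaling gave medians of 0.12 (mitotic) and 0.30 (S phase). For the difference between the models, 8 members and 355 genes were called with no filter, 9 members and 385 genes at 5 FPKM, and 3 members with epithelial scaling. Its mitotic median was 1.34 with a pseudocount of 0.1, 1.275 at 5 FPKM and 0.60 with epithelial scaling, which gave an S phase median of -0.23. For DSS against TNBS under saline, 5 FPKM gave 13 members and 3661 genes, epithelial scaling 4273 genes and medians of -0.99 (mitotic) and -0.32 (S phase), and a pseudocount of 0.1 a mitotic median of -1.59. Under thymopentin 3 members were called with no filter and 4 at 5 FPKM.

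Leaving out each library in turn gave 923 to 2505 called genes and 17 to 28 members in DSS, and 41 to 116 genes and 0 members in TNBS. The DSS gene count, 2346 with all libraries, was 1004 without DSS thymopentin 2, 1290 without DSS thymopentin 3, 1357 without DSS saline 1 and 923 without DSS saline 3. The TNBS gene count, 92 with all libraries, was 41 without TNBS thymopentin 1, 43 without TNBS thymopentin 3, 53 without TNBS saline 1, 58 without DSS thymopentin 3 and 56 without DSS saline 3. The difference ranged over 176 to 764 genes, 6 to 20 members, a mitotic median of 0.81 to 1.16 and an S phase median of -0.0090 to 0.32. Its gene count, 710 with all libraries, was 216 and 350 without DSS thymopentin 2 or 3, 176 without DSS saline 3, 356 without TNBS thymopentin 1, and 213 and 372 without TNBS saline 1 or 2. DSS against TNBS ranged under saline over 29 to 35 members and S phase medians of -0.76 to -0.40, and under thymopentin over 2052 to 3999 genes and 2 to 13 members. Under thymopentin the gene count, 3799 with all libraries, was 2230 and 2052 without DSS thymopentin 2 or 3 and 2427 without TNBS thymopentin 3.

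With a replicate block 24 members were called in DSS, 0 in TNBS, 14 in the difference, 33 under saline and 9 under thymopentin. The block lost Cdc45 under saline, and lost Bub1 and gained Cdt1 under thymopentin. In DSS the samples share only a number.

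Read depth is known only for genes the authors selected, so for genes near 1 FPKM such as E2f1 and Cdc6 counting error cannot be set apart from other spread.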
